A study of Mus musculus with 3 samples.

Results

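The genes described here encode the building parts of caveolae and of endothelial diaphragms, together with the EHD family of membrane ATPases. They are Plvap, Cav1, Cav2, Cav3, Ehd1, Ehd2, Ehd3, Ehd4, Pacsin2 and Dnm2, and were chosen by name, with a gene included if the platform annotation paired a probe set with its symbol alone. All 10 were found, each with 1 probe set, among 19938 named genes on the array. Expression was measured in endothelial cells of embryonic kidneys at 15.5 days post coitum from CD-1 mice carrying the transgene Tg(TIE2GFP)287Sato, in which the Tek (Tie2) promoter drives GFP. Kidneys were trypsinized and GFP-positive cells were sorted, without any other treatment. The series holds 1 group of 3 replicates, called arrays 1, 2 and 3 here, and each sample pooled 4 to 5 kidneys. The labels do not give the litters of the pools, p-values therefore cover no more than the spread among 3 arrays that may be technical in part, and no difference between groups could be tested. The sort takes every cell in which the Tek promoter is active, and the labels name the source only as small blood vessels, without separating glomerular from other vessels.

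Caveolae are flask-shaped pits of the plasma membrane. Caveolins and cavins form their coat, PACSIN2 helps to bend the membrane, EHD2 holds the neck in place and dynamin-2 can cut the pit free. In many endothelial cells the opening of a caveola or of a fenestra, a pore through the thin part of the cell, is spanned by a diaphragm built from the glycoprotein PLVAP. Adult glomerular endothelium is fenestrated and largely lacks these diaphragms, while fenestrated capillaries elsewhere carry them. EHD1, EHD3 and EHD4 act mainly in the recycling of endocytosed membrane, and the study names Ehd3 as a marker of adult glomerular endothelial cells.

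In all 3 arrays of the sorted cells, 9 of the 10 genes reached a signal of at least 100, the value the study filtered on. The exception was the muscle caveolin Cav3. Of all 19938 named genes, 9426 reached it in all 3 arrays. When the mean was tested against that signal, 8 of the 10 had a mean above a signal of 100 (6.64 on the log2 scale), 1 had a mean below it and 1 was on neither side (limma, Benjamini-Hochberg adjustment over all probe sets, threshold 0.05). Among all named genes 41.6% were above the level and, likewise, 41.6% below it. The median of the 10 mean levels was 8.13 log2 beside 6.67 for all named genes. The gene on neither side was the glomerular marker Ehd3. The counts rested on all arrays being used. Of the 10 genes, 3 were above the level without array 1, 3 without array 2 and 3 without array 3, where the test had fewer values. Of the 19938 named genes, 5531, 5051 and 8023 were above in these settings, beside 8295 with all arrays. Cav2 and Ehd1, with equal values in arrays 1 and 2, still passed without array 3.

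**Figure D1:**
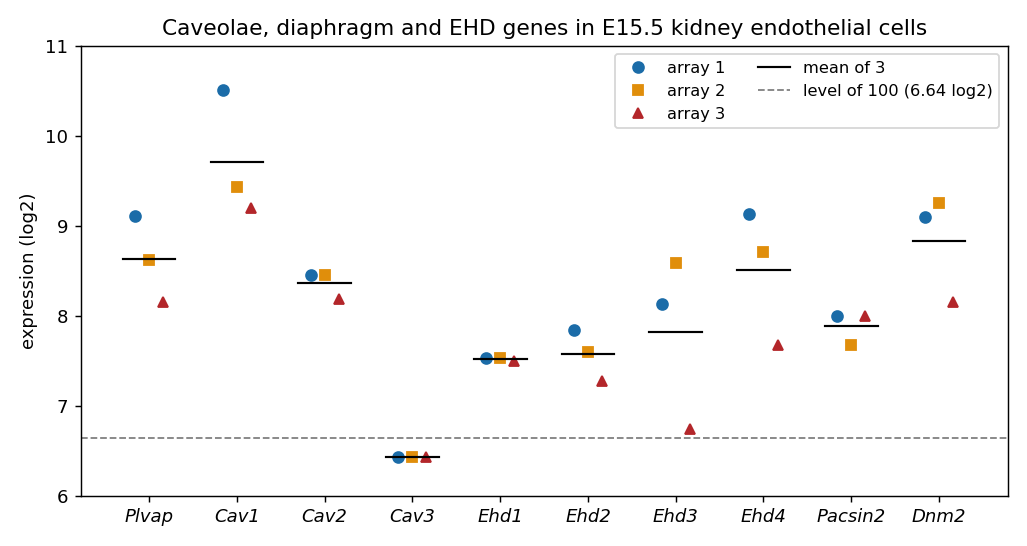
Log2 expression (vertical axis) of the 10 genes in each of the 3 arrays (symbols), with the mean of the 3 as a bar and the level of 100 as a dashed line. Cav1 was at 9.20 to 10.51 log2, Cav3 was at 6.43 in every array, and Ehd3 ranged from 6.74 to 8.59.

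A few properties of the 3 arrays bear on these values. Median log2 values were 6.50 to 6.55, but array 3 had the narrowest spread, with an SD of 1.84 against 2.06 to 2.08, and genes of olfactory and vomeronasal receptors, used as a measure of background, reached higher in it. The 95th percentile of 1194 such genes was 6.29 log2 in array 1, 6.40 in array 2 and 6.67 in array 3. At least 2 arrays shared an identical value in 55.9% of probe sets, and in 4 of the 10 described here. An SD of 0.00 in such a gene is therefore no measure of replicate error, and calls were also made with a single spread of 0.49 log2 pooled over all probe sets. By that spread 9 of the 10 lay above and none below, against 36% and 32.5% of all named genes. The gene gained was Ehd3, whose own SD of 0.96 log2 is larger than that spread. The defining markers of the labelled cell type were present, with 11 of 12 endothelial genes above the level and none below. Means over the 3 arrays were 10.09 ± 0.60 log2 for Pecam1, 11.08 ± 0.59 for Cdh5, 10.74 ± 0.53 for Tek and 8.62 ± 0.53 for Tie1 (SD, n = 3).

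Plvap, whose protein spans the openings of caveolae and of many fenestrae, was at 9.11, 8.62 and 8.15 log2 in arrays 1, 2 and 3, or between 284 and 551.5 on the linear scale. All 3 values lay well over 100. Its mean of 8.63 ± 0.48 log2 (SD, n = 3) was above the level by 1.98 (adjusted p = 0.0155). It lay at the 87.1th percentile of all named genes, where percentiles are given as descriptions because probe sets differ in affinity and no gene was tested against another.

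Cav1, encoding the principal coat protein of non-muscle caveolae, was at 10.51, 9.43 and 9.20 log2. Array 1 stood apart from the others by over 1 log2 unit, and the lowest value, 587.5 on the linear scale, was still well over the level. The mean of 9.71 ± 0.70 log2 (SD, n = 3) was 3.07 above the level (adjusted p = 0.0139) and at the 94.3th percentile of named genes. At a level of 200 in place of 100, its difference of 2.07 log2 did not pass (adjusted p = 0.0605).

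Cav2, the caveolin that forms hetero-oligomers with CAV1, was at 8.45, 8.45 and 8.19 log2. The 3 arrays were close, with equal values in arrays 1 and 2. Its mean of 8.36 ± 0.15 (SD, n = 3) was 1.72 above the level (adjusted p = 0.00205). With such equal values the SD is no measure of replicate error. Cav2 was the single gene of the 10 whose mean also passed the test against a level of 200. The lowest array was nevertheless over 200 on the linear scale for Cav1 (587.5), Plvap (284.1), Dnm2 (283.7), Ehd4 (205) and Pacsin2 (203.6) as well. Cav2 and Cav1 are direct neighbours in the RefSeq annotation of GRCm38.p6, with 0 genes listed between them. The deviation of array 1 from the mean of the 3 arrays was 0.80 log2 for Cav1 and 0.08 for Cav2.

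Cav3, the caveolin of skeletal, cardiac and some smooth muscle, was the low member of the family. It was listed at 6.43 log2 in all 3 arrays, or 86.3 on the linear scale. Its mean was 0.21 below the level (adjusted p = 0.000314), a call that rests on 3 equal values and was lost with the pooled spread (adjusted p = 0.472). Cav3 lay above the 95th percentile of olfactory and vomeronasal receptor genes in arrays 1 and 2 and below it in array 3. Of 10 striated muscle markers, 4 were above the level and 4 below, and 2 and 4 by the pooled spread. The muscle regulators Myod1 (6.93 ± 0.11 log2) and Myog (6.98 ± 0.00) and the muscle creatine kinase Ckm (7.32 ± 0.04) were above, though only Ckm of the 3 by the pooled spread, and skeletal actin Acta1 was at 6.77 ± 0.25 without passing (SD, n = 3).

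**Figure D2:**
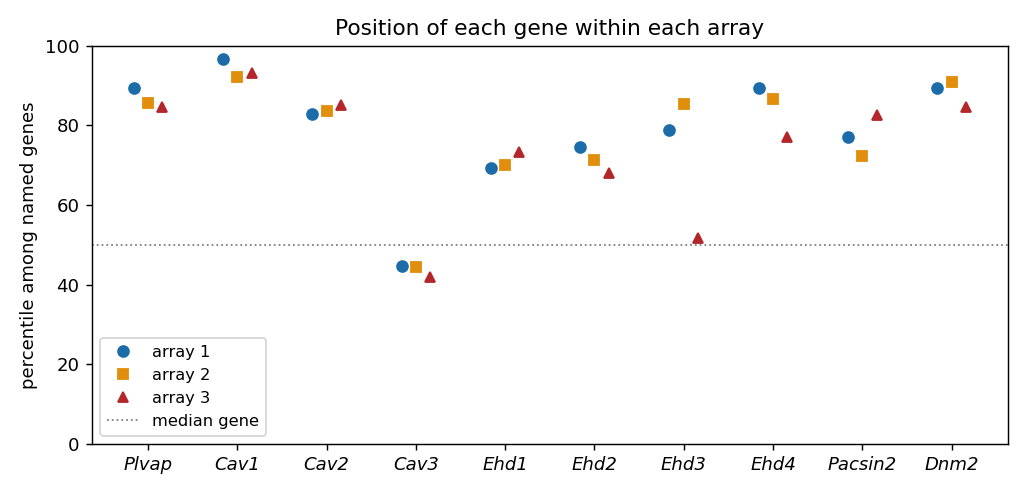
Percentile of each gene (vertical axis, 0 to 100) among the 19938 named genes of the same array, 1 symbol per array, with the median gene as a dotted line. Ehd3 was at 78.8 in array 1, 85.4 in array 2 and 51.8 in array 3, while Cav3 stayed between 41.8 and 44.7.

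The 4 EHD genes encode closely related ATPases that remodel membranes. Ehd1, which returns receptors from recycling endosomes to the cell surface, was at 7.53, 7.53 and 7.50 log2. The values of arrays 1 and 2 were identical, so the SD is no measure of replicate error. The mean of 7.52 ± 0.02 (SD, n = 3) was 0.88 above the level (adjusted p = 0.000173, a value that rests on this SD). By the pooled spread the adjusted p was 0.00344. Ehd2, the caveolar neck protein, was at 7.84, 7.60 and 7.28 log2. Its values spanned 1.48-fold, and the mean of 7.57 ± 0.28 (SD, n = 3) was 0.93 above the level (adjusted p = 0.0245).

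Ehd3, a protein of endosome to Golgi traffic, was at 8.13, 8.59 and 6.74 log2. Arrays 1 and 2 were high, while array 3, at 107 on the linear scale, was just over the level and just over the 6.67 log2 reached by the 95th percentile of olfactory and vomeronasal receptor genes there. The mean of 7.82 ± 0.96 (SD, n = 3) lay 1.18 over the level and did not pass (adjusted p = 0.153). It passed with the pooled spread, with a level of 50 and with the level set at that receptor percentile. The pooled spread of 0.49 log2 is smaller than the SD of Ehd3 itself, so for this gene it is the less cautious test. Without array 3 the mean lay 1.71 over the level and did not pass either (adjusted p = 0.098). Its values spanned 3.60-fold, and its SD was at the 98.9th percentile of all named genes.

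Ehd4, the paralog that works with EHD1 and EHD3 at early endosomes, was at 9.13, 8.71 and 7.68 log2. Array 3 was again the lowest, at 205 on the linear scale, and all 3 values were over the level. The mean of 8.51 ± 0.75 (SD, n = 3) was 1.86 above it (adjusted p = 0.0415). The call was lost when eBayes was run with its trend and robust settings (adjusted p = 0.0523). The SD of Ehd4 was at the 96.4th percentile of named genes. The EHD genes are paralogs with similar coding sequences, and whether their probe sets detect one another's transcripts was not tested.

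Pacsin2, encoding an F-BAR protein that shapes caveolae, was at 256.5 on the linear scale in both arrays 1 and 3 and at 7.67 log2 in array 2. Array 2 was the low one here and the others were equal. The mean of 7.89 ± 0.19 (SD, n = 3) was 1.25 above the level (adjusted p = 0.00652). Dnm2, the broadly expressed dynamin that cuts both caveolar and clathrin-coated pits from the membrane, was at 9.10, 9.25 and 8.15 log2. Its mean of 8.83 ± 0.60 (SD, n = 3) was 2.19 above the level (adjusted p = 0.0197), and its array 3 value was 284 on the linear scale.

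**Figure D3:**
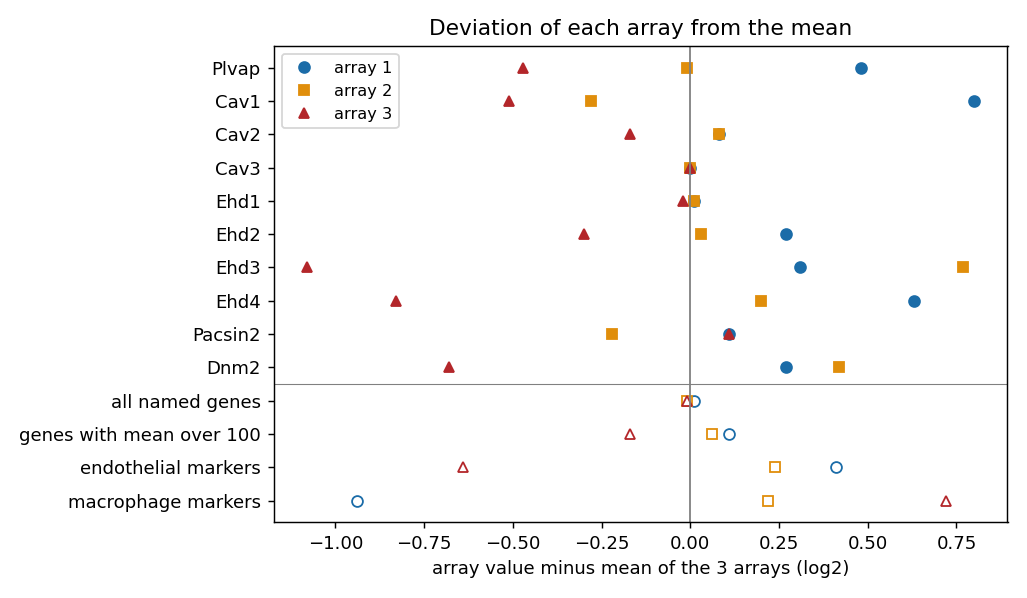
Value of each array minus the mean of the 3 arrays (horizontal axis, log2) for the 10 genes (filled symbols), and the same averaged over the genes of a list (open symbols). In array 3 Ehd3 lay 1.08 and Ehd4 0.83 log2 under their means, the endothelial markers were on average at -0.64 and the macrophage markers at 0.72.

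In 8 of the 10 genes array 3 held the lowest value, the exceptions being Pacsin2 and Cav3. The deviation of array 3 from the mean was -1.08 log2 for Ehd3, -0.83 for Ehd4, -0.68 for Dnm2, -0.51 for Cav1, -0.47 for Plvap and -0.30 for Ehd2. It was smaller for Cav2 (-0.17) and Ehd1 (-0.02), and for Pacsin2 it was 0.11. Among the 10098 named genes with a mean of at least 100, 58.0% lay under their mean in array 3 and the median deviation was -0.05, and the deviation of Ehd3 was at the 1.6th percentile of them and that of Ehd4 at the 5.0th. With 1 array per pool this difference has no test.

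Markers of cell types moved between the arrays as well. All 12 endothelial markers lay under their mean in array 3, by 0.06 to 1.07 log2, and the median level of the list was 10.34, 10.16 and 9.20 log2 in arrays 1, 2 and 3. Of 12 macrophage markers 11 lay over their mean in array 3, and the median of that list was 6.75, 7.95 and 8.59 log2. The receptor Csf1r was at 6.95 ± 0.48 log2, the complement gene C1qa at 6.57 ± 0.27, Adgre1 at 6.26 ± 0.58 and Cd68 at 8.36 ± 0.92 (SD, n = 3), and 2 of the 12 passed as above the level (8 by the pooled spread). Higher levels and wider shifts were seen in other members, named here after their values were seen. Tyrobp, an adaptor of myeloid receptors, was at 8.16, 9.72 and 10.56 log2, the complement gene C1qc at 6.99, 8.61 and 9.61, and the mannose receptor Mrc1 at 6.51, 9.08 and 9.97. C1qa was the single member under its mean in array 3. Of all 19938 named genes, 8207 lay over their mean in array 3, 6617 under it and 5114 at it. Of 10 striated muscle markers 7 lay over their mean in array 3 and none under it, and of 8 stromal markers 5 and none. The part of these shifts in the values of the 10 genes was not tested, and fewer cells of a type cannot be told apart from less RNA per cell in such pools.

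After quantile normalization of the 3 arrays, which removes the narrower spread of array 3 and was applied to these deviations after the data were seen, the deviation of array 3 was -1.01 log2 for Ehd3, -0.62 for Ehd4 and -0.42 for Dnm2. It was -0.25 for Cav1, -0.22 for Plvap and -0.17 for Ehd2, and turned to 0.08 for Cav2 and 0.12 for Ehd1, while for Pacsin2 it grew to 0.32. Array 3 then held the lowest value in 6 of the 10 genes, in place of 8. The 6 were Plvap, Ehd2, Ehd3, Ehd4, Dnm2 and Cav3, whose equal deposited values became a deviation of -0.04. Among the 10098 named genes with a mean of at least 100, 4173 then lay under their mean in array 3, beside 5857 before. For Cav1 the arrays were at 10.37, 9.32 and 9.47 log2, with array 2 the lowest. The endothelial list still had a median deviation of -0.43 and the macrophage list one of 0.84.

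Caveolins are also made outside endothelium, among others in smooth muscle and fibroblasts, so markers of other kidney cells were set beside them. Of 10 mural markers, 1 was above the level and 7 below, or none and 4 by the pooled spread. Pdgfrb (5.87 ± 0.00 log2) and Rgs5 (5.89 ± 0.00), both known from pericytes, were below, smooth muscle actin Acta2 was above at 7.21 ± 0.00 and the smooth muscle myosin Myh11 was below at 6.52 ± 0.00 (SD, n = 3). Their medians were 6.11 to 6.16 log2 across the arrays. Of 8 stromal markers, 5 were above and 2 below (3 and 2 by the pooled spread), with Foxd1 at 7.87 ± 0.54, Pdgfra at 6.41 ± 0.32, the collagen Col1a1 at 7.58 ± 0.00 and Tbx18 at 4.99 ± 0.22 (SD, n = 3). Their median was 6.98 log2 in each array, but 5 of the 8 lay over their mean in array 3 and none under it. Among all 19938 named genes 8207 lay over theirs and 6617 under. Foxd1 was at 7.46, 7.68 and 8.48 log2 and Pdgfra at 6.22, 6.22 and 6.78.

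Podocytes, which lie next to glomerular endothelium, and other nephron and blood cells were represented as follows. Of 4 measured podocyte markers, 1 was above the level and 2 below, with nephrin Nphs1 at 6.46 ± 0.23 log2, Synpo at 5.99 ± 0.10 and Ptpro at 5.86 ± 0.35, and with Podxl, which endothelium shares, at 8.04 ± 0.18 (SD, n = 3). Of 8 nephron and ureteric bud markers, 3 were above and 5 below, among them the progenitor genes Six2 (7.37 ± 0.12) and Cited1 (7.28 ± 0.00) and the cadherin Cdh1 (6.67 ± 0.00) above and Ret (6.15 ± 0.20) below (SD, n = 3). Of 7 measured erythroid markers, 4 were above and 2 below, with the embryonic globins Hbb-y (9.23 ± 0.57) and Hba-x (7.47 ± 0.14) above, Alas2 (7.13 ± 0.32) on neither side and the globin Hbb-bh1 (5.09 ± 0.09) below (SD, n = 3). By the pooled spread the counts above and below were 1 and 2 for podocytes, 2 and 3 for the nephron, and 2 and 2 for erythroid cells. The part of any of these cells in the caveolar values was not tested.

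Of the 4 cavins, which coat caveolae together with the caveolins, 3 were above the level and 1 below. Cavin1, needed for caveola formation in all tissues, was at 7.98 ± 0.00 log2, Cavin2 at 8.76 ± 0.06 and Cavin3 at 8.58 ± 0.07, all above the level (SD, n = 3). Cavin4, the cavin of muscle, was at 6.15, 6.25 and 6.40 log2 and was called below (adjusted p = 0.0251), though not by the pooled spread (adjusted p = 0.206). Cavin1 had the same value in all 3 arrays, and Cavin2 and Cavin3 each had the same value in arrays 1 and 3, so their SDs are no measure of replicate error. After quantile normalization of the arrays, array 3 lay 0.21, 0.25 and 0.23 log2 over the mean for Cavin1, Cavin2 and Cavin3. As their deposited values were equal in arrays 1 and 3, these deviations come from the rescaling and are no measured rise.

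Paralogs of Pacsin2 and Dnm2 that are known mainly from neurons or muscle stood closer to the level. Pacsin1, the neuronal form, was at 6.21 ± 0.00 log2 and below it, and Pacsin3, the muscle form, at 6.68 ± 0.00 was counted as above by 0.03 log2 on 3 equal values (SD, n = 3). Dnm1, the neuronal dynamin, was at 6.40 ± 0.00 and below, and Dnm3 at 7.75 ± 0.03 above (SD, n = 3). By the pooled spread only Dnm3 of these 4 was called. In this list of 8 cavins and paralogs, 5 lay above and 3 below, and 4 and none by the pooled spread.

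**Figure D4:**
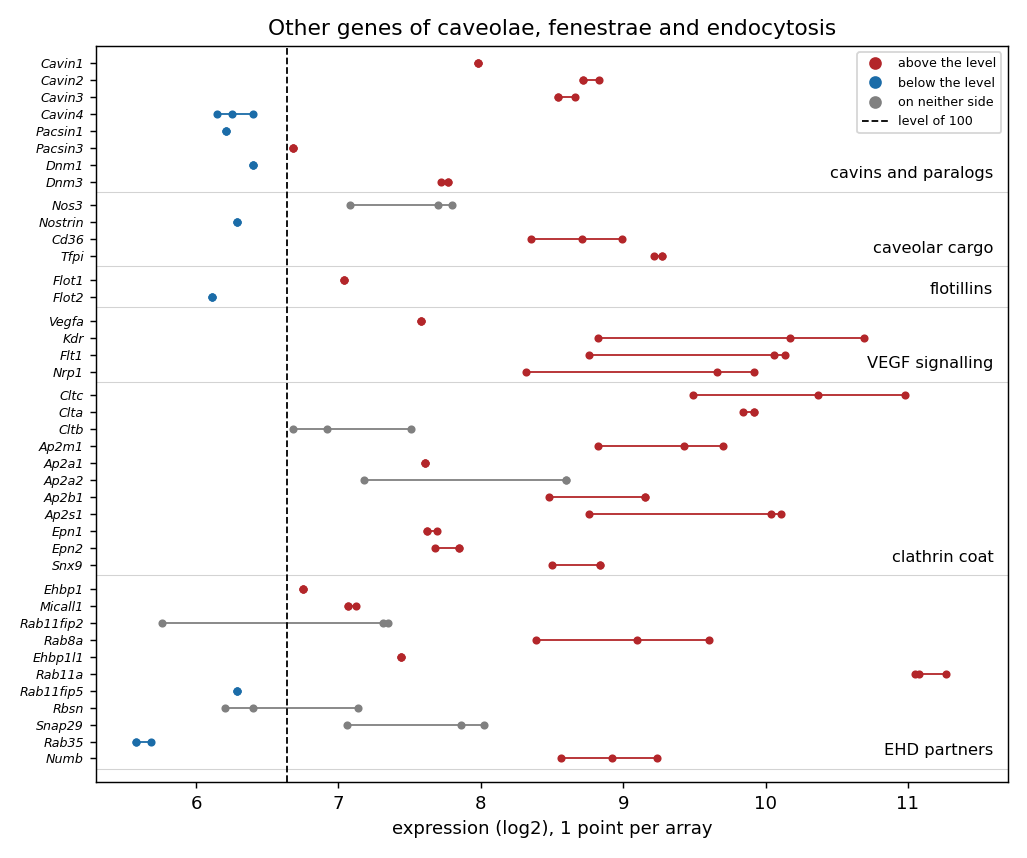
Log2 expression (horizontal axis) of 40 measured genes of caveolae, fenestrae and endocytosis, with a point for each array, a line from the lowest to the highest and the level of 100 as a dashed line, coloured by the call. Kdr, Flt1 and Nrp1 spread over 8.32 to 10.69 log2, while Cavin1 to Cavin3 stayed within 7.98 to 8.83.

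Fenestrae form under VEGF signalling, and the 4 genes taken from that pathway were above the level. The receptor Kdr was at 10.69, 10.17 and 8.82 log2, Flt1 at 10.06, 10.14 and 8.76, and the co-receptor Nrp1 at 9.92, 9.66 and 8.32. Array 3 was lowest for each, as it was for 8 of the 10 genes, Plvap among them. Vegfa, the ligand, which is known to come chiefly from epithelial cells of the kidney, was at 7.58 log2 in all 3 arrays. Of 4 proteins that bind to or gather in endothelial caveolae, the fatty acid receptor Cd36 (8.68 ± 0.32) and the coagulation inhibitor Tfpi (9.26 ± 0.03) were above the level. Nitric oxide synthase Nos3 (7.53 ± 0.39) did not pass (adjusted p = 0.0503), though it was above by the pooled spread (adjusted p = 0.00327), and Nostrin, which binds it, was below at 6.29 ± 0.00, though not by the pooled spread (SD, n = 3).

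The flotillins, which mark other membrane domains, lay on either side of the level. Flot1 was at 7.04 ± 0.00 log2 and called above, and Flot2 at 6.11 ± 0.00 was called below (SD, n = 3), and neither was called by the pooled spread. The clathrin route, for comparison, was well covered. Among 11 measured genes 9 lay above and none below, with the clathrin heavy chain Cltc at 10.28 ± 0.75, the light chain Clta at 9.90 ± 0.05 and the adaptor subunit Ap2m1 at 9.32 ± 0.45, while the light chain Cltb at 7.03 ± 0.43 did not pass (SD, n = 3).

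Partners of the EHD proteins in recycling were mixed. Among 11 such genes 6 lay above and 2 below, or 5 and 1 by the pooled spread. Ehbp1, an EHD-binding protein, was at 6.75 ± 0.00 log2, and Micall1, which recruits EHD proteins to recycling tubules, at 7.08 ± 0.03, and both were called above, though not by the pooled spread. The small GTPase Rab8a was above at 9.03 ± 0.60. Rab11fip2 was at 7.35, 7.31 and 5.76 log2 and did not pass (adjusted p = 0.832). Its array 3 value lay under the 6.67 log2 of the receptor percentile there. Over all 40 measured genes of these lists 27 were above and 7 below (26 and 1 by the pooled spread), and without array 1 the count above fell to 16. Among all 19938 named genes the count above fell from 8295 to 5531 without array 1.

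Promoter sequences of the RefSeq annotation (GRCm38.p6) are shown for 4 of the genes. The study reported conserved ETS2 sites, beside sites of other factors, to be enriched in promoters of genes elevated in these cells. None of the 10 genes is among those it lists with such sites. The search here matched letters without regard to conservation, which is a different measure. Cav1 had the highest mean of the 10 genes, and Ehd3 and Ehd4 the lowest deviations in array 3. Pacsin2 was the single gene, among the 8 with a promoter, with a match to the ETS2 core. The 250 bases before the annotated start were searched on both strands for CAGGAA, the fixed part of the ETS2 site, and for CCAAT, a common promoter element, and matches are in capitals. Each sequence is written 5′ to 3′ on the strand of its gene.
Cav1, chr6:17306085-17306334, plus strand: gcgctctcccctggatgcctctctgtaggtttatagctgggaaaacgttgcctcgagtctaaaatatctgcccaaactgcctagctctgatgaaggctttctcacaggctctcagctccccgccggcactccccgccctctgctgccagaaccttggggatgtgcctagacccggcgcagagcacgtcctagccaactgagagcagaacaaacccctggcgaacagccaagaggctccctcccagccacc
Ehd3, chr17:73804591-73804840, plus strand: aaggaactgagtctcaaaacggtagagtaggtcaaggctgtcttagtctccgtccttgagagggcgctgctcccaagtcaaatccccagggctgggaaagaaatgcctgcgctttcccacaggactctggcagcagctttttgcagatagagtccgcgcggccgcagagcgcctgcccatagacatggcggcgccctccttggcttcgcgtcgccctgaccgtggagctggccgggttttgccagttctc
Ehd4, chr2:120154576-120154825, minus strand: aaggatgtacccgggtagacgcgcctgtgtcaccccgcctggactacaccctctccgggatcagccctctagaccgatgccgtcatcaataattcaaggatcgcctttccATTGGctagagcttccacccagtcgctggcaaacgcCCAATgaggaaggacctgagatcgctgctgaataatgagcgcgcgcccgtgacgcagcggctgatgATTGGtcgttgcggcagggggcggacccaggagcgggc
Pacsin2, chr15:83464607-83464856, minus strand: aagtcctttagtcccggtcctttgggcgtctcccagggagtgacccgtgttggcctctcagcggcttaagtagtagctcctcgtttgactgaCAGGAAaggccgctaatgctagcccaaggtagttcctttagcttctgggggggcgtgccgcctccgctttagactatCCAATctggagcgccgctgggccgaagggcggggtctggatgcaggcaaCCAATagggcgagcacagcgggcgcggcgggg

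The promoter table held 11 annotated starts for 8 of the 10 genes, with none for Plvap and Ehd1. CAGGAA or its complement TTCCTG was found before 2 of these 11 starts, both of Pacsin2, and before 25.7% of 32851 promoters of all genes. At the Pacsin2 start shown, the match began 158 bases before it. Another Pacsin2 start, which is not shown, held 2 matches, beginning 167 and 35 bases before it. CCAAT or its complement ATTGG was found before 5 of the 11 starts, those of Cav2, Ehd2, Ehd4, Pacsin2 and Dnm2, and before 33.8% of all promoters. Ehd4 held 3 matches, beginning 140, 104 and 38 bases before the start, Dnm2 held 4, of which a pair overlapped, and 10.1% of all promoters held at least 2. Neither motif was found in the windows of Cav1, Cav3 and Ehd3. The windows shown had a GC content of 59.6% for Cav1, 60.0% for Ehd3, 61.2% for Ehd4 and 62.0% for Pacsin2, beside a median of 52.4% over all promoters. Cav1 and Pacsin2 have more than 1 annotated start, of which the most upstream is shown. The windows not shown had 60.8% for Cav1, and 46.4% and 50.8% for Pacsin2. These matches describe the letters of the windows, and no binding was measured.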

How the data were processed

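RNA of each pool went through 1 round of NuGEN Pico amplification and onto 1 Affymetrix Mouse Gene ST array. The authors deposited log2 values for 35557 probe sets. The labels name Affymetrix Expression Console, while how this table was summarized is not given. RMA in GeneSpring is what the study used in its own comparisons. The values were used as deposited, and 3 arrays limit their precision. No array coordinates were used.

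Platform annotation gave 1 symbol for 21789 probe sets, several for 1621 (not named here) and none for 12147, and 21698 symbols were updated by gene identifier through RefSeq. A gene's value was the mean of its probe sets.

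The mean of a probe set was set against a signal of 100, which the study filtered on, with an intercept-only limma 3.58.1 fit and eBayes in R 4.3.3, one-sided in each direction, adjusted over all probe sets. A gene was above if any probe set was, and below only if all were. Alternatives are listed in the closing section. The test was checked on simulated data without tied values. Descriptions used Python 3.11.15 and pandas 2.3.3. The members, lists and motifs were chosen with earlier results of these data known. Named were all members, all cavins and paralogs, the VEGF genes and the first 4 measured genes of other lists in list order. Likeness between genes was not computed over 3 arrays.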

Additional observations from a re-analysis of the deposited data

How the results depend on the processing

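The number of the 10 genes above the level was 8 and ranged from 7 to 10 under the pooled spread, trend and robust eBayes, a level of 50, the receptor percentile as the level, quantile normalization, median centring, single-symbol probe sets only and gene means. The 10 were reached at a level of 50, where 14235 of all 19938 named genes were above. In the other settings of this list 7180 to 8640 of all named genes were above. At a level of 200 the number of the 10 above was 1, beside 3221 of all 19938 named genes. Leaving out each array gave 3 in each case, beside 5531, 5051 and 8023 of all named genes without array 1, 2 and 3. The number below the level, 1 (Cav3), was 0 with the pooled spread, 0 at a level of 50, 0 against the receptor percentile and 2 at a level of 200. At 50, Cav3 lay 0.79 log2 over the level, and at 200, Ehd1 and Ehd2 lay at -0.12 and -0.071 log2. For the 40 related genes, 27 above became 12 at a level of 200 and 16 to 26 when an array was left out. The 7 below became 1 with the pooled spread, 0 at a level of 50, 15 at 200 and 1 against the receptor percentile. Without any single array they became 6. Of all 19938 named genes, 8290 were below in the main setting. That number was 6474 with the pooled spread, 2613 at a level of 50, 13280 at 200 and 6350 against the receptor percentile. It was 5338, 5163 and 9085 without array 1, 2 and 3. With 2 arrays the test has few degrees of freedom, and a lost call there is no sign of a lower level. After quantile normalization the deviation of array 3 changed sign for Cav2 and Ehd1. Of 120 member values under 12 alternatives, 91 kept their direction and side of the threshold, 23 no longer passed, 3 newly passed and 3 changed direction. No paired analysis was possible because there is a single group.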
